A study of Mus musculus with 2 samples.

Results

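The integrated stress response and serine synthesis were described through 10 mouse genes: Atf4, Atf5, Ddit3, Asns, Trib3, Sesn2, Chac1, Psat1, Phgdh and Shmt2. They were chosen by name, and all 10 were found among the 35275 genes of the deposited read count table. The series set TEa cells exposed to much antigen against TEa cells exposed to a moderate amount. TEa cells are CD4 T cells with a transgenic receptor for a peptide of the I-E alpha chain of BALB/c mice, and here they were of C57BL/6 strain. The exhausted group came from cells transferred into CB6F1 mice, hybrids whose own cells carry that chain. The effector group came from cells transferred into WT C57BL/6 recipients that bore a BALB/c skin transplant. In both groups TEa cells were sorted from spleen, and their total RNA was made into a low-input library. Recipient strain and graft differ together with the amount of antigen and cannot be told apart from it. The names exhausted and effector are the submitters' titles. The sources used here give no age of the mice, no time after transfer and no number of mice per library.

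Each group held 1 library, with 8508129 counted reads in the exhausted and 7844445 in the effector library. There was no replicate check, so no test was made and every interval below is an exact 95% interval for counting error only, which takes each read as an independent molecule. In bulk RNA, fewer cells using a gene and less RNA per cell cannot be told apart. Cd4 had 15463 reads in the exhausted and 9272 in the effector library, Cd3e had 11432 reads in exhausted and 7624 in effector cells, and Cd8a had 0 in both. Of the 11 T cell markers examined 0 were higher by 2-fold or more in the exhausted library and 2 were lower, the receptor gene Trac (11561 reads in exhausted against 22526 in effector cells) and Thy1 (372 reads in exhausted against 835 in effector cells), and 5 of the 11 had a scaled ratio below equality. The CD8 gene Cd8b1 was not absent, with 81 reads in the exhausted and 164 in the effector library (a ratio of 0.457, 0.345 to 0.599). Of 34 marker genes of other spleen cells, 9 had 0 reads in both libraries, among them Ms4a1 and Ly6g. Per 1000000 counted reads, all 34 together took 525 in the exhausted and 1035 in the effector library, most of them Ighm. Without Ighm they took 72.4 in the exhausted and 73.8 in the effector library. Their neutrophil genes had 3 reads in the exhausted and 62 in the effector library, and their erythroid genes had 15 reads in exhausted and 114 in effector cells. Of the 6 markers with 50 reads or more, 4 were lower by 2-fold or more in the exhausted library and 2 were higher, Itgam (183 reads in exhausted against 22 in effector cells) and Klrb1c (229 reads in exhausted against 36 in effector cells). Of all genes with 50 reads or more, 6.65% were higher and 7.07% lower by the 2-fold rule given below. The 11 T cell markers and these 6 are few to set against those shares. The part of these markers in the results below was not tested.

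The integrated stress response slows general protein synthesis when a cell lacks amino acids or haem, holds unfolded protein in its endoplasmic reticulum, or detects double-stranded RNA. Kinases that sense these states phosphorylate the initiation factor eIF2, and the messenger RNA of the transcription factor ATF4 is then translated more, because of short upstream reading frames. ATF4 protein turns on genes of amino acid uptake and synthesis, serine synthesis among them, and dividing T cells use serine for one-carbon units and nucleotides. Since ATF4 is largely set by translation, the level of its messenger RNA is not a measure of its protein.

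A known binding site of ATF4 joined to a C/EBP factor has the letters TGATGNAA, where N is any base, and some promoters read it on the other strand as TTNCATCA. Promoter windows of RefSeq (build GRCm38.p6), which run from 250 bases before to 50 after a gene's start, were found by symbol for all 10 genes. These letters were searched for on both strands, and 3 of the 10 genes held them: Asns, Chac1 and Trib3. Over all genes with a window the share was 4.51% (1219 of 27025). The 10 genes were chosen by name as genes of this response, so setting their share beside that of all genes is no test. The stretches are shown because these 3 genes were also among the 4 with the fewest reads. The 8 letters of the match are in capitals, and each line runs 5′ to 3′ on the gene's own strand.
Asns (chr6:7693210-7693269, minus strand): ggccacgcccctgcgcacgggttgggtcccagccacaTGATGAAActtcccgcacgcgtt
Chac1 (chr2:119351023-119351082, plus strand): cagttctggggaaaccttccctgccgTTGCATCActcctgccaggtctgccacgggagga
Trib3 (chr2:152344028-152344057, minus strand): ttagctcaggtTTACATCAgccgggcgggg

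The match in Asns lay at bases -23 to -16 from the start and that in Chac1 at -193 to -186. The match in Trib3 lay at bases 15 to 22 past the start. These positions count from the RefSeq start, which differs from the start in the deposited table given with each gene below. The RefSeq start lies outside the deposited gene for Trib3 and inside it for Asns and Chac1, so the Trib3 match falls before the deposited start and the Asns match after it. Of the 4 genes with fewer than 50 reads over both libraries, 3 had a match. Of the 6 genes with at least 50 reads, 0 had one. Among all genes of the table with a window, the share was 5.03% of those under 50 reads and 2.51% of those with at least 50. Of the pathway genes described below, Eif2s3x, Jdp2, Got1, Lamtor4 and Herpud1 had a match and at least 50 reads. Atf3, Fgf21, Vldlr, Nupr1, Pycr1, Slc7a7, Slc7a11 and Slc1a4 had a match and fewer than 50. A link between match and read number was not tested. A match of letters does not show that a factor binds there, and sites outside these windows were not searched.

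A gene is called measured below if the libraries together held 50 reads of it or more, as was the case for 9999 genes. Counts were scaled by effective library size. A gene is called higher or lower where the scaled count of the exhausted library differed by 2-fold or more from that of the effector library, with an interval that left out equality. Of all measured genes, 6.65% were higher and 7.07% were lower by that rule. Of the 10 members, 6 were measured, 1 of them was higher (Sesn2), 0 were lower and 5 were neither. The median log2 ratio of those 6 was 0.11, beside -0.002 over all measured genes. The measured members thus lay on both sides of equality, and a single gene past the rule among 6 is too few to read against the background share. With a 1.5-fold line 2 of the 6 were higher (Sesn2 and Psat1) and 0 lower, beside 13.7% and 13.6% of all measured genes. With the interval required to lie wholly beyond 2-fold, 0 of the 6 were higher or lower, beside 4.08% and 4.53%.

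**Figure D1:**
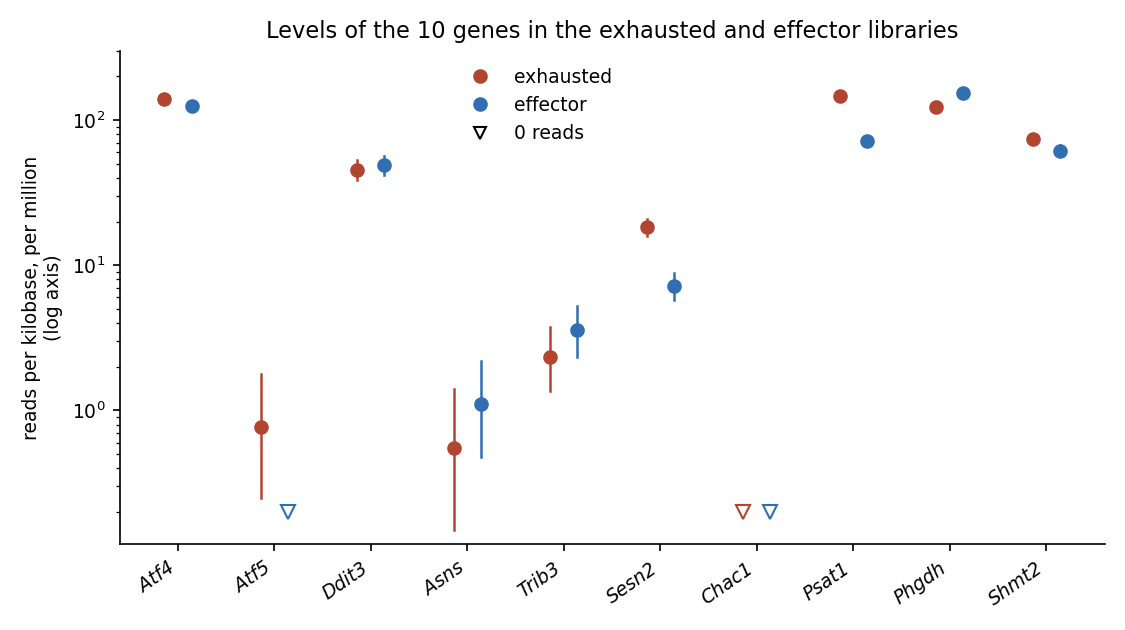
Level of each of the 10 genes, in reads per kilobase of deposited gene length, scaled to sum to 1000000 over all genes, on a log axis, with exhausted cells left of effector cells. Bars are exact 95% Poisson intervals, and open triangles mark 0 reads. Psat1 (147 in exhausted against 71.5 in effector cells) and Sesn2 (18.2 in exhausted against 7.17 in effector cells) are higher and Phgdh (123 in exhausted against 153 in effector cells) is lower in the exhausted library, each with intervals that do not overlap. Those of Shmt2 (74.5 in exhausted against 61.7 in effector cells) also just miss each other on this scale, and Atf4 (139.8 in exhausted against 125 in effector cells) nearly coincides. This scale gives larger ratios of exhausted over effector than the scaling used for the calls. By the latter Psat1 was 1.91-fold and Shmt2 1.12-fold (0.995 to 1.26), neither past the rule.

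Levels were compared between genes per length, as reads per kilobase of the deposited gene length, scaled to sum to 1000000 over all genes. In the exhausted library the order was Psat1 (147), Atf4 (139.8), Phgdh (123), Shmt2 (74.5), Ddit3 (45.1), Sesn2 (18.2), Trib3 (2.34), Atf5 (0.768), Asns (0.553) and Chac1 (0). The intervals of Psat1 and Atf4 overlapped, as did those of Atf4 and Phgdh and of all neighbours from Trib3 down. In the effector library the order was Phgdh (153), Atf4 (125), Psat1 (71.5), Shmt2 (61.7), Ddit3 (48.8), Sesn2 (7.17), Trib3 (3.59), Asns (1.11), and Atf5 and Chac1 at 0. There the intervals of Psat1 and Shmt2, of Shmt2 and Ddit3, and of all neighbours from Asns down overlapped. Psat1 was thus the highest member in the exhausted library and the third in the effector library. The other members from Shmt2 to Trib3 kept their places. Among measured protein-coding genes, Atf4 lay above 86.1% in the exhausted and 85.0% in the effector library, and Sesn2 above 30.6% in the exhausted and 14.7% in the effector library.

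Atf4, the central transcription factor of the response (ENSMUSG00000042406, mm10 chromosome 15, 80255184 to 80257540), had 865 reads in the exhausted and 768 in the effector library. The ratio was 1.04-fold (0.944 to 1.15), so the libraries did not differ beyond counting error. Ddit3 encodes CHOP, a transcription factor that ATF4 induces and that acts in prolonged stress (ENSMUSG00000025408, chromosome 10, 127290774 to 127296288). It had 157 reads in the exhausted and 169 in the effector library, a ratio of 0.859 (0.687 to 1.07), and was not distinguishable either. Exons of Ddit3 overlap those of Mars on the other strand by 68 bases, and Mars had 896 reads in the exhausted and 699 in the effector library. Whether the counting used strand is not stated in the sources used here. The number of Ddit3 reads per Atf4 read did not differ between libraries beyond counting error (0.825 as a ratio of ratios, 0.645 to 1.05).

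Atf5, a related factor whose messenger RNA is also under upstream reading frames (ENSMUSG00000038539, chromosome 7, 44812257 to 44816658), had 5 reads in the exhausted and 0 in the effector library. That is too few for a fold, and 82 bases of its exons overlap those of Il4i1 on the other strand, which had 11 reads in exhausted and 5 in effector cells. The tribbles pseudokinase gene Trib3, a target of ATF4 and CHOP that feeds back on them (ENSMUSG00000032715, chromosome 2, 152337422 to 152344032), had 17 reads in the exhausted and 26 in the effector library. With 43 reads in all it lay just under the 50-read minimum, and its ratio of 0.604 (0.308 to 1.16) did not exclude equality. Chac1, which encodes an enzyme that breaks down glutathione (ENSMUSG00000027313, chromosome 2, 119351229 to 119354381), had 0 reads in both libraries, which by the usual one-sided limit for a count of 0, and not by an interval as above, allows up to 3 reads in each, or 0.353 and 0.382 per 1000000 reads in the exhausted and effector libraries. Asns, the asparagine synthetase gene (ENSMUSG00000029752, chromosome 6, 7675169 to 7693254), had 4 reads in the exhausted and 8 in the effector library, with a ratio of 0.462 (0.102 to 1.73). These 4 genes had 26 reads or fewer in each library, and no difference between them was detectable at this depth.

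Sesn2 was the member past the rule. It encodes sestrin 2, a leucine-binding protein that restrains the growth kinase complex mTORC1 when leucine is low (ENSMUSG00000028893, chromosome 4, 132492032 to 132510501). It had 227 reads in the exhausted and 89 in the effector library, 2.36-fold higher in exhausted cells (1.84 to 3.05). The interval reaches below 2-fold, and 4.79% of measured genes had a larger ratio. Its paralog Sesn3 had 586 reads in the exhausted and 235 in the effector library, also higher (2.31-fold, 1.98 to 2.69). The paralog Sesn1 had 956 reads in the exhausted and 1147 in the effector library, which was a ratio of 0.771 (0.706 to 0.840) and not past the rule. Within the libraries, reads of Sesn2 per read of Sesn1 were 3.06 times as many in the exhausted library (2.35 to 4.01). No scaling changes that ratio, but 2 genes on opposite sides of equality must differ by more than either alone. Per read of Sesn3, reads of Sesn2 did not differ beyond counting error (1.02, 0.760 to 1.38). The deposited length of Sesn3 is 2162 bases, whereas its merged exons in GENCODE M21 span 15269, so how reads of its longer forms were counted is not known.

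**Figure D2:**
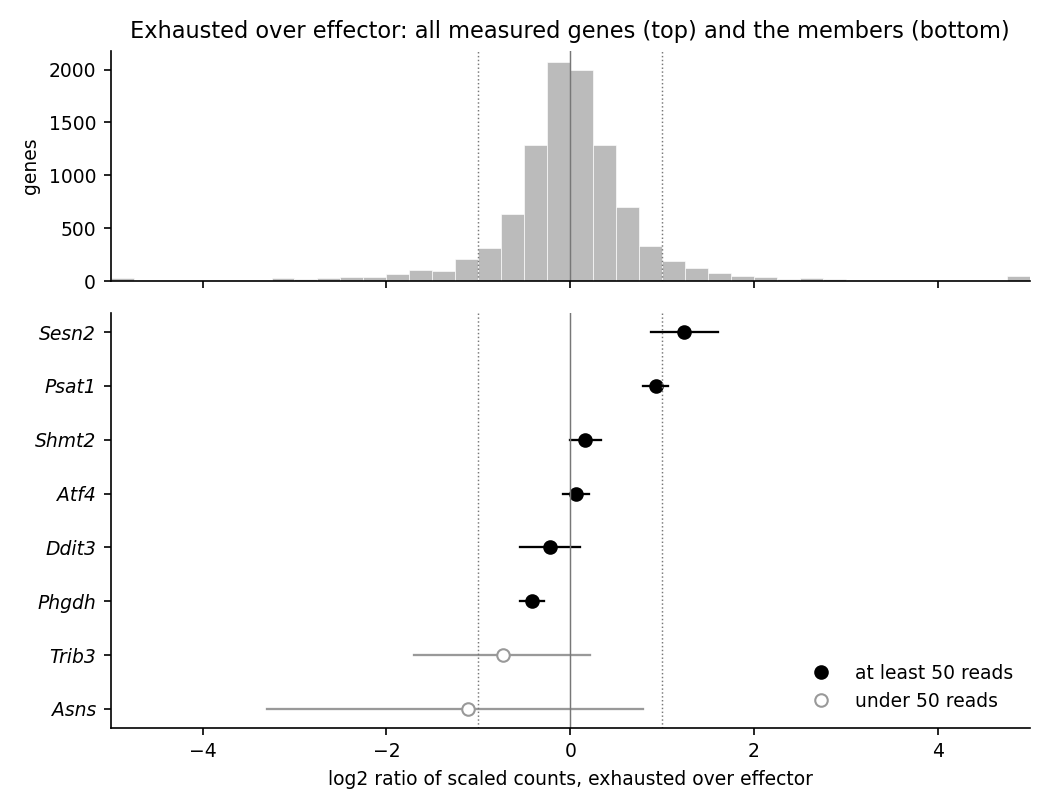
Upper panel, number of the 9999 measured genes by log2 ratio of scaled counts, exhausted over effector, with ratios beyond 5 in the outermost bars. Lower panel, the 8 members with reads in both libraries, with exact 95% counting intervals and dotted lines at 2-fold. Sesn2 (1.24) and Psat1 (0.93) lie at the right, and the wide intervals of Trib3 and Asns span equality.

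The serine synthesis genes did not move together. The pathway begins with Phgdh, which oxidises the glycolytic intermediate phosphoglycerate (ENSMUSG00000053398, chromosome 3, 98313170 to 98339990). Phgdh had 837 reads in the exhausted and 1032 in the effector library, and was 1.33-fold lower in exhausted cells (1.22 to 1.46), short of 2-fold. Psat1 encodes the aminotransferase of the next step (ENSMUSG00000024640, chromosome 19, 15904678 to 15947337). It had 1380 reads in the exhausted and 669 in the effector library, 1.91-fold more (1.74 to 2.09). That ratio fell just short of the 2-fold line, and 7.35% of measured genes had a larger one. Psph, the phosphatase of the last step and no member, had 231 reads in the exhausted and 368 in the effector library, 1.72-fold fewer (1.46 to 2.04). Its exons overlap those of Cct6a on the other strand by 452 bases, and Cct6a had 2190 reads in exhausted and 1994 in effector cells. The middle step of the pathway thus had the larger count in exhausted cells, and the steps before and after it had the smaller one.

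The 3 genes were also set against each other within each library. Per length there were 1.19 reads of Psat1 for each of Phgdh in the exhausted library and 0.469 in the effector library, a ratio of ratios of 2.54 (2.23 to 2.90). For Psat1 over Psph the values were 6.57 in the exhausted and 1.999 in the effector library, a ratio of ratios of 3.29 (2.71 to 3.99). For Phgdh over Psph they were 5.51 in the exhausted and 4.26 in the effector library, a ratio of ratios of 1.29 (1.07 to 1.57). These ratios are free of library scaling. The pairs were chosen after their values were seen, and a pair of genes on opposite sides of equality must differ by more than either gene alone. GENCODE M21 also lists a processed pseudogene of Phgdh, and how reads shared with such copies were counted is not known.

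Shmt2, the mitochondrial enzyme that turns serine into glycine and a one-carbon unit (ENSMUSG00000025403, chromosome 10, 127517123 to 127522444), had 616 reads in the exhausted and 508 in the effector library. Its ratio of 1.12 (0.995 to 1.26) did not exclude equality. Its cytosolic paralog Shmt1 had 240 reads in exhausted and 177 in effector cells (1.25-fold, 1.03 to 1.53), and its exons overlap those of Smcr8 on the other strand. Reads of Shmt2 per read of Shmt1 did not differ between the libraries beyond counting error (0.894 as a ratio of ratios, 0.708 to 1.13). Of the 25 other genes of serine, glycine and one-carbon metabolism in the table, 19 were measured, and 0 passed the rule in either direction. Of all measured genes 6.65% were higher and 7.07% lower. The median log2 ratio of the 19 was 0.007. The genes nearest the 2-fold line were Mthfd1l, a mitochondrial enzyme that releases formate (685 reads in the exhausted against 325 in the effector library, 1.95-fold, 1.71 to 2.23), and Atic, an enzyme of purine synthesis (559 reads in exhausted against 274 in effector cells, 1.89-fold, 1.63 to 2.19). Mat2a, which makes the methyl donor S-adenosylmethionine, had 6149 reads in the exhausted and 3740 in the effector library (1.52-fold, 1.46 to 1.58). Mthfd2, the mitochondrial enzyme upstream of Mthfd1l and an ATF4 target, named for its place in the pathway, had 761 reads in exhausted and 701 in effector cells and a ratio of 1.004 (0.905 to 1.11).

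**Figure D3:**
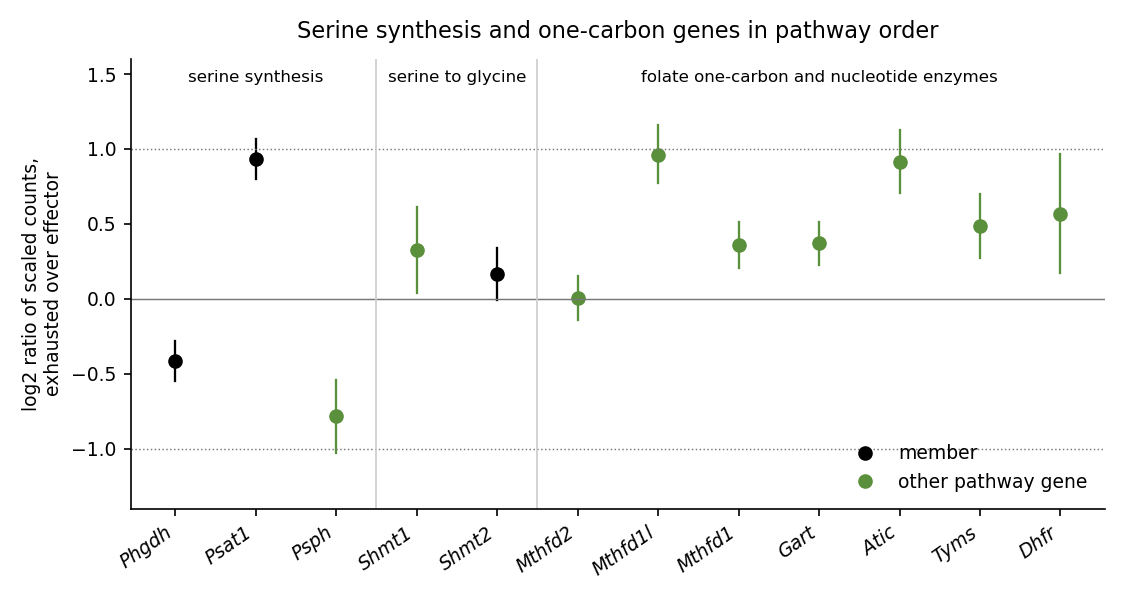
Log2 ratio of scaled counts, exhausted over effector, with exact 95% counting intervals, for 12 genes placed in pathway order, with members in black and dotted lines at 2-fold. Psat1 lies above and Phgdh and Psph below equality, and of the folate and nucleotide genes Mthfd1l and Atic lie nearest the upper line.

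In the sensing machinery of the response, the feedback phosphatase subunit was the gene that passed the rule. Of 17 genes of the kinases and the eIF2 machinery, all measured, 1 was lower, 0 were higher and 16 did not pass. Of all measured genes 7.07% were lower and 6.65% higher, and 1 gene among 17 is too few to read against these shares. The median log2 ratio of the 17 was -0.11. The lower gene was Ppp1r15a, which encodes GADD34, the stress-induced subunit that brings a phosphatase to eIF2. It had 591 reads in the exhausted and 1700 in the effector library, 3.11-fold lower (2.83 to 3.42). Its constitutive relative Ppp1r15b had 1326 reads in the exhausted and 926 in the effector library (1.32-fold, 1.22 to 1.44). Gcn1l1, whose product helps activate the amino acid sensor kinase GCN2, had 1592 reads in exhausted against 1027 in effector cells (1.43-fold, 1.32 to 1.55). Eif2ak2, which encodes the double-stranded RNA sensor PKR, had 163 reads in the exhausted and 214 in the effector library, a ratio of 0.704 (0.571 to 0.867). Other kinase genes, named beyond the rule for named genes, were Eif2ak1, with a ratio of 0.864 (0.780 to 0.958), and Eif2ak3 (1.13, 0.943 to 1.36) and Eif2ak4 (1.16, 0.940 to 1.43), whose intervals included equality. Eif2s2 (0.768, 0.676 to 0.872) and Eif2b2 (0.765, 0.677 to 0.864), subunits of eIF2 and of its exchange factor and likewise named beyond the rule, had intervals below equality.

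Of 13 partner and related leucine zipper factors, 10 were measured, and 1 was lower, 0 were higher and 9 did not pass. Of all measured genes 7.07% were lower and 6.65% higher, and 1 gene is too few to set against that. The median log2 ratio of the 10 was 0.03. The lower gene was Jdp2, a repressor of the AP-1 family (5 reads in the exhausted and 53 in the effector library, 11.5-fold lower, 4.62 to 36.8). The partner gene Cebpg had 414 reads in the exhausted and 260 in the effector library (1.47-fold, 1.26 to 1.73). Atf7 had 294 reads in exhausted and 193 in effector cells (1.41-fold, 1.17 to 1.70), and the antioxidant regulator Nfe2l2 had 621 reads in exhausted and 706 in effector cells (0.813, 0.729 to 0.907). Of 15 other response genes 6 were measured, with 1 higher, 0 lower and 5 that did not pass, beside the same background shares. The median log2 ratio of the 6 was -0.28, and 0.044 over the 4 genes with at least 500 reads. The higher gene was Ddit4, which encodes the mTORC1 inhibitor REDD1 (2101 reads in the exhausted and 872 in the effector library, 2.23-fold, 2.06 to 2.41). Got1 (223 reads in exhausted against 259 in effector cells) and Eif4ebp1 (36 reads in exhausted against 46 in effector cells) were within 2-fold. Fgf21, Cth and Cbs had 0 reads in both libraries.

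Measured amino acid transporter genes had ratios at or above equality. Of 15 genes 9 were measured, and 1 was higher, 0 were lower and 8 did not pass. Of all measured genes 6.65% were higher and 7.07% lower, and 1 gene among 9 is too few to read against these shares. Their median log2 ratio was 0.32. All 9 ratios lay above equality, beside 4983 of all 9999 measured genes. The ratio of Slc38a9 did so by 0.004 on the log2 scale and lay below equality with total-count scaling. Under the read minimum, Slc43a1 had 5 reads in exhausted and 27 in effector cells (0.171, 0.0515 to 0.451). Slc1a4 had 0 reads in exhausted and 8 in effector cells (interval 0 to 0.542). Both intervals lay below equality, and those of Slc7a3, Slc7a7, Slc7a11 and Slc6a9 included it. The transporter genes were thus not uniformly higher. Slc38a1, a carrier of glutamine and other neutral amino acids, had 2629 reads in the exhausted and 1089 in the effector library, 2.23-fold higher (2.08 to 2.40). Slc1a5, which carries glutamine and serine among others, had 7050 reads in exhausted and 3302 in effector cells (1.97-fold, 1.89 to 2.06). It passed the 2-fold line with DESeq2 size factors (2.01-fold). The arginine and lysine carrier Slc7a1 had 497 reads in exhausted and 252 in effector cells (1.82-fold, 1.56 to 2.13), and Slc7a5, the leucine carrier, had 515 reads in exhausted and 372 in effector cells (1.28-fold, 1.12 to 1.47).

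Of the 7 paralogs of the members, all measured, 2 had ratios above and 5 below equality, beside 4983 and 5016 of all measured genes. Sesn3 (above) was the 1 higher gene, with 1 lower and 5 that did not pass. Of all measured genes 6.65% were higher and 7.07% lower, and 7 genes are too few to read against these shares. The median log2 ratio of the 7 was -0.38. The lower gene was Trib2, a tribbles pseudokinase with far more reads per length than Trib3 (1550 reads in the exhausted and 3992 in the effector library, 2.79-fold lower, 2.63 to 2.96). Trib1 had 121 reads in the exhausted and 174 in the effector library (1.56-fold fewer, 1.23 to 1.98), and Chac2 had 30 reads in exhausted and 48 in effector cells (1.73-fold fewer, 1.07 to 2.83). Asnsd1 had 53 reads in exhausted and 51 in effector cells (0.961, 0.642 to 1.44). Of its exon length in GENCODE M21, 56.5% is shared with Gm28551 on its own strand, which had 0 reads.

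Of 26 genes of mTORC1 and its amino acid sensors, on which sestrins act, 24 were measured. Of these 1 was lower, 0 were higher and 23 did not pass, beside 7.07% lower and 6.65% higher of all measured genes. The median log2 ratio of the 24 was -0.10. The lower gene was Gatsl3, which encodes the arginine sensor CASTOR1 (119 reads in the exhausted and 286 in the effector library, a ratio of 0.385, 0.308 to 0.478). Its relative Gatsl2 had 168 reads in the exhausted and 79 in the effector library (1.97-fold, 1.496 to 2.602). Mtor itself had 625 reads in exhausted and 326 in effector cells (1.77-fold, 1.55 to 2.03), and the Rag GTPase gene Rragb had 103 reads in exhausted and 54 in effector cells (1.76-fold, 1.26 to 2.499).

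Genes of the other branches of the unfolded protein response, which run through IRE1 and ATF6 and not through eIF2, numbered 21. All were measured, and 2 were higher, 1 was lower and 18 did not pass, beside 6.65% higher and 7.07% lower of all measured genes. Ratios above equality were seen for 19 of the 21, beside 4983 of all 9999 measured genes, and the median log2 ratio was 0.31. Hyou1, a chaperone of the endoplasmic reticulum, had 623 reads in the exhausted and 197 in the effector library, 2.92-fold higher (2.49 to 3.45). Hspa5, which encodes the chaperone BiP, had 10887 reads in exhausted and 5016 in effector cells and only just passed (2.01-fold, 1.94 to 2.08). Xbp1, the transcription factor that IRE1 activates by splicing, had 1673 reads in exhausted and 817 in effector cells (1.89-fold, 1.74 to 2.06), and the table does not separate its spliced form. Edem1, which sends misfolded glycoproteins to degradation, had 1106 reads in the exhausted and 3521 in the effector library, 3.44-fold lower (3.22 to 3.69).

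**Figure D4:**
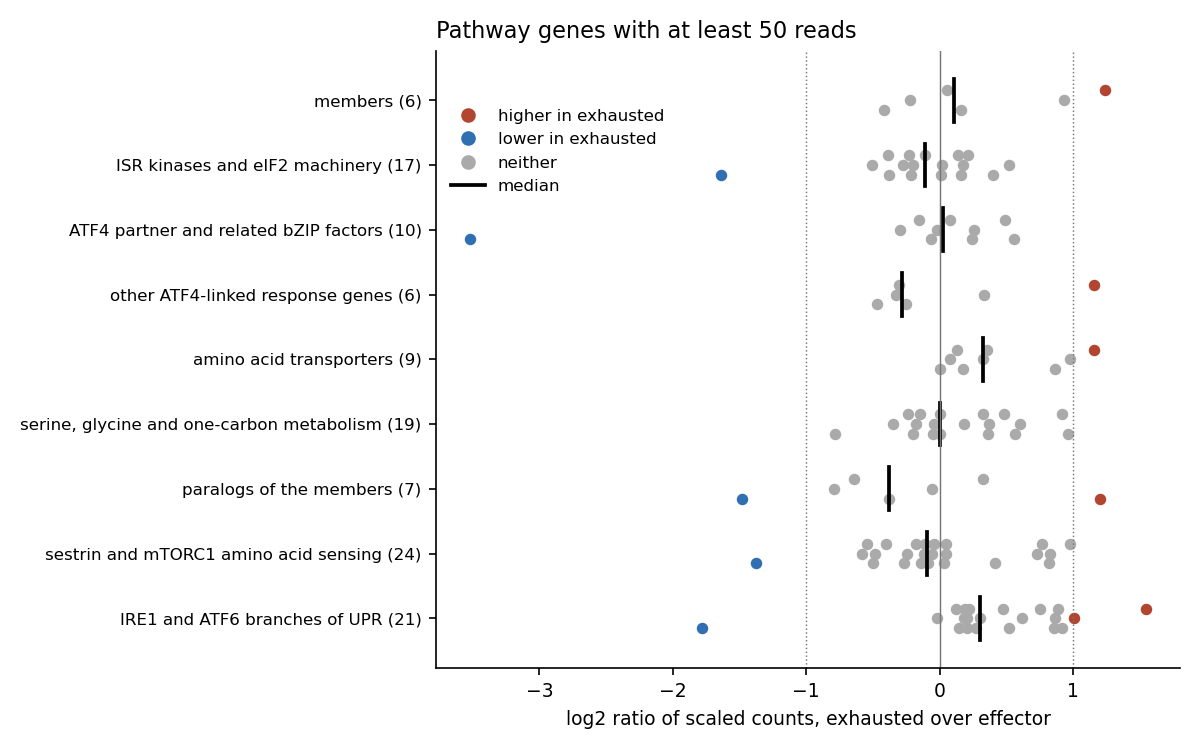
Log2 ratio of scaled counts, exhausted over effector, for each measured gene of the members and of 8 pathway lists, with the number of genes in brackets and the median as a black line. Dotted lines mark 2-fold. Medians lie between -0.38 (paralogs of the members) and 0.32 (amino acid transporters), and Jdp2 (-3.52) lies farthest to the left.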

How the data were processed

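The deposited table holds raw counts of reads for every gene in each library and, per the file headers, the symbol, position, length and type of the gene. Per the submitters' processing notes, STAR 2.6 and genome build mm10 were used. Counter, strand setting and annotation release: not given in the sources used here. Per the labels' protocols the libraries were low-input total RNA, which are amplified, and no molecular identifiers are recorded, so copies of 1 molecule can be counted more than once.

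Scaling used the TMM factors of edgeR 4.0.16, computed over the measured genes in R 4.3.3, and no model was fitted. For each gene, the share of its reads that lay in the exhausted library was given an exact 95% Clopper-Pearson interval (scipy 1.17.1), which was turned into an interval of the ratio. Intervals of ratios of ratios are exact conditional ones. For levels, counts were divided by the deposited gene length, which is shorter than the merged exons of GENCODE M21 for most genes named. For medians, 0 reads in 1 library of a gene were replaced by 3. Exon overlaps were looked up in GENCODE M21.

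The members and lists were chosen with earlier results of these data known. The rule for named genes took all members and their paralogs, and from each list the 4 measured genes with the largest absolute log2 ratio and, where there were 5 or fewer, those past the 2-fold rule. Not every gene so taken is reported here. Symbols of 4 list entries were matched through Ensembl IDs. Alternatives were other scalings (total counts, upper quartile, size factors of DESeq2 1.42.0), other read minimums and size rules, thinning of the deeper library, a prior count for genes at 0, and protein-coding genes only.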

Additional observations from a re-analysis of the deposited data

How the results depend on the processing

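No paired analysis was possible because each group held 1 library, and for the same reason none could be left out. With a minimum of 500 reads in place of 50, 0 members were higher, since Sesn2 has 316 reads, and the median log2 ratio of the other ATF4-linked genes was 0.044 over 4 genes. With the interval required to lie wholly beyond 2-fold, 0 members were higher, and with a 1.5-fold line 2 were, Sesn2 and Psat1. Over all genes the counts higher and lower were 1040 and 1102 with a minimum of 1 read, 244 and 264 with 500 reads, 408 and 453 with the interval wholly beyond 2-fold, and 1371 and 1359 with a 1.5-fold line. These shifts follow from the genes or sizes that each setting admits. The other 100 counts and medians stayed within 1.5 times or within the counting interval of the middle genes. All 64 values of single members stayed within their own interval, but this was largely fixed in advance. A read minimum leaves the ratio of a gene unchanged, and the scale factors of exhausted over effector differed little (1.064 to 1.085 for the full counts). Under scaling, thinning and a prior count of 2, the log2 ratio of Sesn2 ranged from 1.22 to 1.26 and that of Psat1 from 0.92 to 0.96. Depth limits Asns, Atf5, Chac1 and Trib3, which had 0 to 26 reads per library.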

Other observations

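Among the leucine zipper factors, Cebpd, which encodes a C/EBP factor of acute stress and inflammation, had 46 reads in the exhausted and 1 in the effector library (42.5-fold, 7.26 to 1716). It lay just under the 50-read minimum and was named after its values were seen. The genes that follow are likewise outside the rule for named genes. Of the amino acid and mTORC1 genes under that minimum, Slc43a1 had 5 reads in the exhausted and 27 in the effector library. Slc1a4 had 0 reads in exhausted and 8 in effector cells, Rragd 0 and 13, and Deptor 5 and 12. Other genes had more reads in exhausted than in effector cells: Slc6a9 (4 and 1), Slc7a7 (9 and 6) and Slc7a3 (3 and 2). Mthfd2l, the less used relative of Mthfd2, had 4 reads in the exhausted and 23 in the effector library. From the same list, Gldc had 8 reads in exhausted and 5 in effector cells, Aldh1l1 2 and 7, and Amt 2 and 3. Slc7a11, the cystine carrier gene that ATF4 is known to induce, had 0 reads in exhausted and 1 in effector cells, and Atf3, a stress-induced factor, had 2 reads in exhausted and 0 in effector cells.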
